A study of Mus musculus with 16 samples.

Results

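The liver X receptors LXRα (Nr1h3) and LXRβ (Nr1h2) and 8 of their best-known target genes were followed in mouse alveolar-like macrophages exposed to Mycobacterium abscessus. The 10 genes were taken from the count files by Ensembl identifier, of 55359 genes per file, and all 10 were among the 17190 genes abundant enough to be tested. They were chosen on their measured levels in the 4 groups, in which Abca1 had been seen to run against Abcg1 and Srebf1. Their values are therefore given as a description, and no p-value is given for any of the 10. Where calls at a threshold are given for them, these are a description too.

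The cells are MPI-2, a wild-type line of alveolar-like macrophages kept in medium with the growth factor GM-CSF and used over a wide range of passages. Cultures were exposed to M. abscessus, a fast-growing mycobacterium that can live inside macrophages, or left uninfected, and their polyadenylated RNA was sequenced on day 1 or day 5. The 4 groups (uninfected day 1, exposed day 1, uninfected day 5, exposed day 5) hold 4 replicates each, which the labels call biological and which all come from 1 cell line. The labels used here do not give the bacterial strain, the dose or how many cells took up bacteria, and each value averages a whole culture.

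LXRs are nuclear receptors that bind oxysterols, the oxidised forms of cholesterol, and act on DNA together with a retinoid X receptor (RXR). In macrophages loaded with cholesterol they switch on the export of cholesterol through the transporters ABCA1 and ABCG1, the synthesis of fatty acids through SREBP-1c and its target desaturases, the remodelling of membrane phospholipids through LPCAT3, and the removal of the LDL receptor through the ubiquitin ligase IDOL. Alveolar macrophages clear surfactant, a lipid-rich film, and so handle large amounts of cholesterol.

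Total counts per library lay between 46154875 and 81995629, and the 10 genes had between 506 counts (Apoe) and 274545 counts (Scd2) in a library. Levels are counts-per-million (CPM) of the library total after TMM scaling, and differences are log2 fold changes from edgeR with their standard error, which rests on a spread shared by the 4 groups. All 7 macrophage markers and all 8 alveolar macrophage markers reached 1 CPM, although Siglecf, a defining surface receptor of alveolar macrophages, lay between 4.72 and 8.17 CPM. Of the markers of 6 other cell types, Col1a2 and Lum (fibroblasts) and Cd3g and Cd8a (T cells) had 0 counts in all 16 libraries, while Cdh1, Pdgfra and S100a8 were present, with values given beside the features that moved with exposure. On the first principal component (61.5% of the variance) the exposed day 5 libraries spread from 90.1 to 127.6, and exposed day 1 replicate 4 stood apart from its group on the third component at 34.2, against 5 to 8.05. Exposed day 5 replicates 2 and 3 carry library codes of another series than the other 14 libraries.

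At day 5, Abca1 was 3.08-fold higher in exposed than in uninfected cells, while Srebf1 was 3.66-fold lower and Abcg1, Scd1, Scd2, Mylip, Lpcat3 and Nr1h3 were lower too. Nr1h2 and Apoe differed little between groups. Of the 10 genes, 1 was called higher and 7 lower at day 5 at an adjusted p under 0.05 (quasi-likelihood test of edgeR, Benjamini-Hochberg adjustment over all genes). Of all 17190 genes tested, 57% were called at day 5, 28.6% higher and 28.4% lower; since the genes were chosen on this contrast, nothing is read from their count. The median log2 fold change of the 10 genes was -0.96, against 0.02 for all genes tested. In bulk RNA, fewer cells that express a gene and less RNA of it per cell cannot be told apart.

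**Figure D1:**
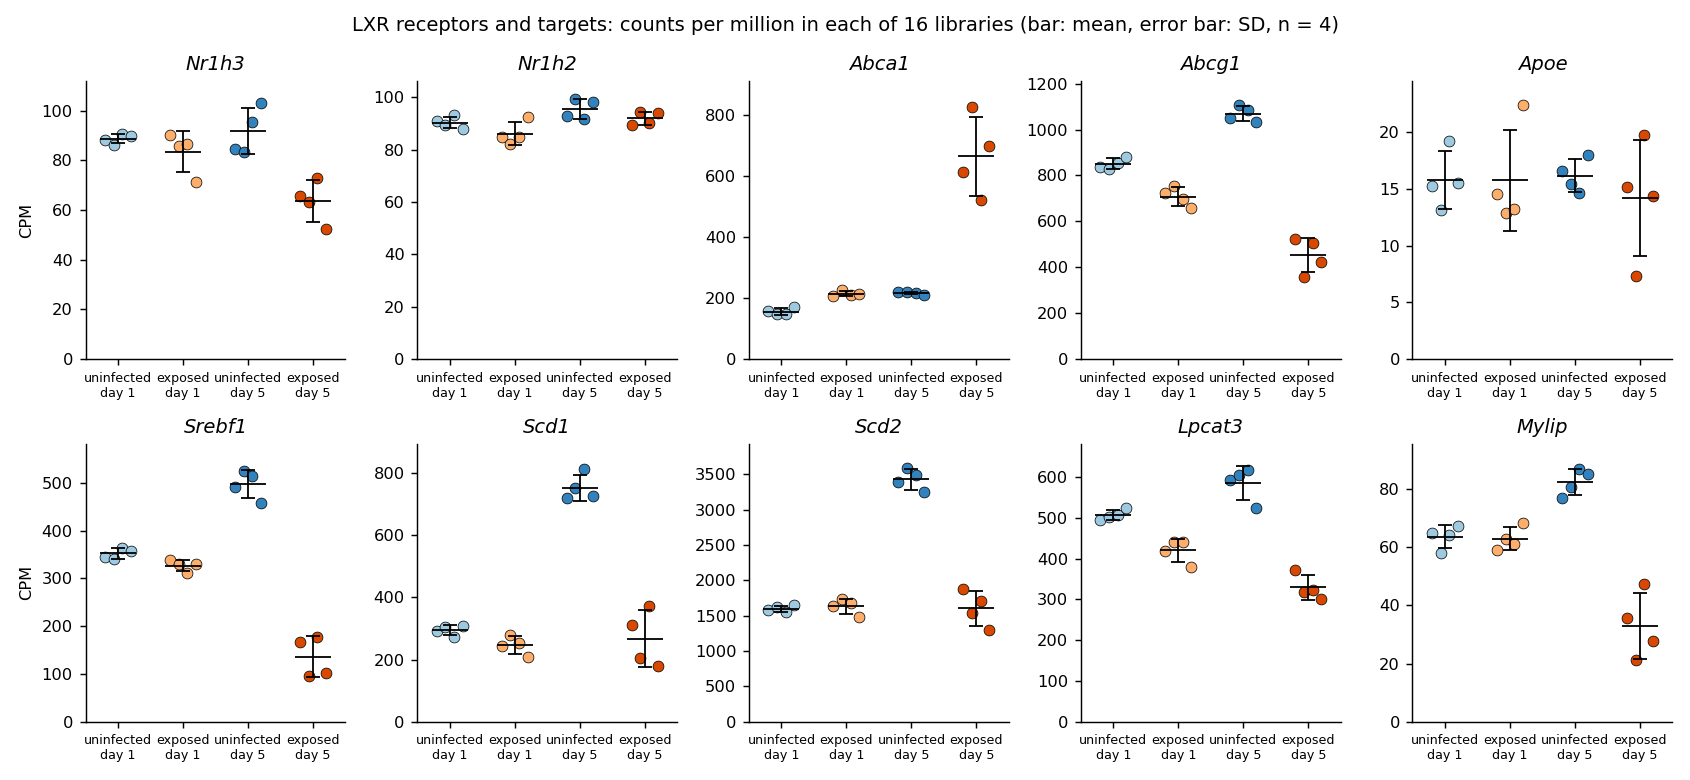
Level of each of the 10 genes in counts-per-million (vertical axis, linear, from 0) in the 16 libraries, with 4 points per group, the group mean as a bar and the SD as an error bar. The 4 exposed day 5 points of Abca1 lie above all other points of that gene, and those of Abcg1, Srebf1, Mylip and Lpcat3 lie below all others.

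The 2 receptors differed from each other. Nr1h2, the receptor found in nearly all cell types (ENSMUSG00000060601.14), measured 93.0, 99.2, 91.6 and 98.2 CPM in uninfected and 89.3, 94.4, 90.3 and 93.8 CPM in exposed day 5 libraries, replicates 1 to 4. These ranges overlapped, as did those of day 1, and the log2 fold change was -0.07 ± 0.06 at day 1 and -0.05 ± 0.06 at day 5. Nr1h3, the receptor concentrated in macrophages, liver and fat (ENSMUSG00000002108.11), measured 84.7, 83.5, 95.6 and 103 CPM in uninfected day 5 libraries. In exposed day 5 libraries it measured 65.8, 63.2, 73.0 and 52.5 CPM. All 4 exposed values were below all uninfected ones, with means of 91.7 ± 9.30 and 63.6 ± 8.51 CPM (SD, n = 4 each) and a log2 fold change of -0.53 ± 0.10. At day 1 the groups overlapped, at 88.3, 86.4, 90.5 and 89.8 CPM without and 90.1, 85.7, 86.8 and 71.5 CPM with bacteria, and the exposed group was wide only through replicate 4. The ratio of Nr1h3 to Nr1h2 counts within a library was thus near 1 in 3 groups (0.983, 0.968 and 0.957) and 0.687 in exposed day 5 cells.

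ABCA1 loads cholesterol and phospholipid onto lipid-poor apolipoprotein A-I, the first step in forming HDL. Abca1 (ENSMUSG00000015243.5) measured 157, 146, 146 and 169.8 CPM in uninfected day 1 libraries and 205, 225, 210.2 and 214 CPM in exposed ones. The exposed libraries were all above the uninfected ones, by a log2 fold change of 0.47 ± 0.11. At day 5 it measured 219, 219, 217 and 209.6 CPM in uninfected libraries and 612, 825, 522 and 699 CPM in exposed libraries. The lowest exposed value was more than any uninfected one, and the means of 216 ± 4.42 and 665 ± 129 CPM (SD, n = 4 each) gave a log2 fold change of 1.62 ± 0.11. The exposure difference was thus larger at day 5 than at day 1 by 1.16 ± 0.15 on the log2 scale. Uninfected cells at day 5 lay within the range of exposed cells at day 1, and the log2 difference between uninfected days was 0.48 ± 0.11.

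ABCG1 passes cholesterol to more mature HDL particles, and mice without it accumulate lipid in the lung. Abcg1 (ENSMUSG00000024030.8) measured 1049, 1105, 1086 and 1033 CPM in uninfected day 5 libraries and 521, 359, 505 and 424 CPM in exposed ones. Every exposed library was below every other library of the series, and the means of 1068 ± 33.1 and 452 ± 75.2 CPM (SD, n = 4 each) gave a log2 fold change of -1.24 ± 0.10. At day 1 it measured 837, 829, 856 and 881 CPM without and 724, 753, 698 and 658 CPM with bacteria. The exposed libraries were again all lower, by a log2 fold change of -0.27 ± 0.10, which edgeR did not call and DESeq2 did. APOE, a lipoprotein component that macrophages secrete as an acceptor of cholesterol, was the least abundant of the 10 transcripts. Apoe (ENSMUSG00000002985.17) lay between 13.2 and 19.3 CPM in uninfected libraries and between 7.37 and 22.4 CPM in exposed ones. The 4 groups overlapped, and the log2 fold change at day 5 was -0.19 ± 0.23.

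Within a library, a ratio of 2 genes' counts does not depend on depth or scaling. The ratio of Abca1 to Abcg1 counts was 0.182 in uninfected day 1, 0.302 in exposed day 1 and 0.202 in uninfected day 5 cells, as the geometric mean of 4 libraries. In exposed day 5 cells it was 1.46, so Abca1 had more counts than Abcg1 in all 4 libraries of that group and in none of the other 12. Counts are not adjusted for exon length, which is 10363 bases for Abca1 and 7298 for Abcg1. Per kilobase of exon, exposed day 5 replicates 1 to 4 held 59.1, 79.6, 50.4 and 67.4 CPM of Abca1. Those of Abcg1 were 71.4, 49.2, 69.2 and 58.2, so Abca1 was the lower in replicates 1 and 3 and the higher in 2 and 4. The log2 ratio was -2.31 ± 0.03 in uninfected and 0.55 ± 0.52 in exposed day 5 libraries (SD, n = 4 each), a 7.24-fold difference, against a 1.66-fold difference at day 1. Abca1 against Srebf1 differed 11.5-fold at day 5 and 1.49-fold at day 1. Abcg1 against Srebf1, which were both lower in exposed cells, differed by 0.67 on the log2 scale at day 5 and by -0.16 at day 1. These ratios were chosen from the pattern they show and are a description.

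**Figure D2:**
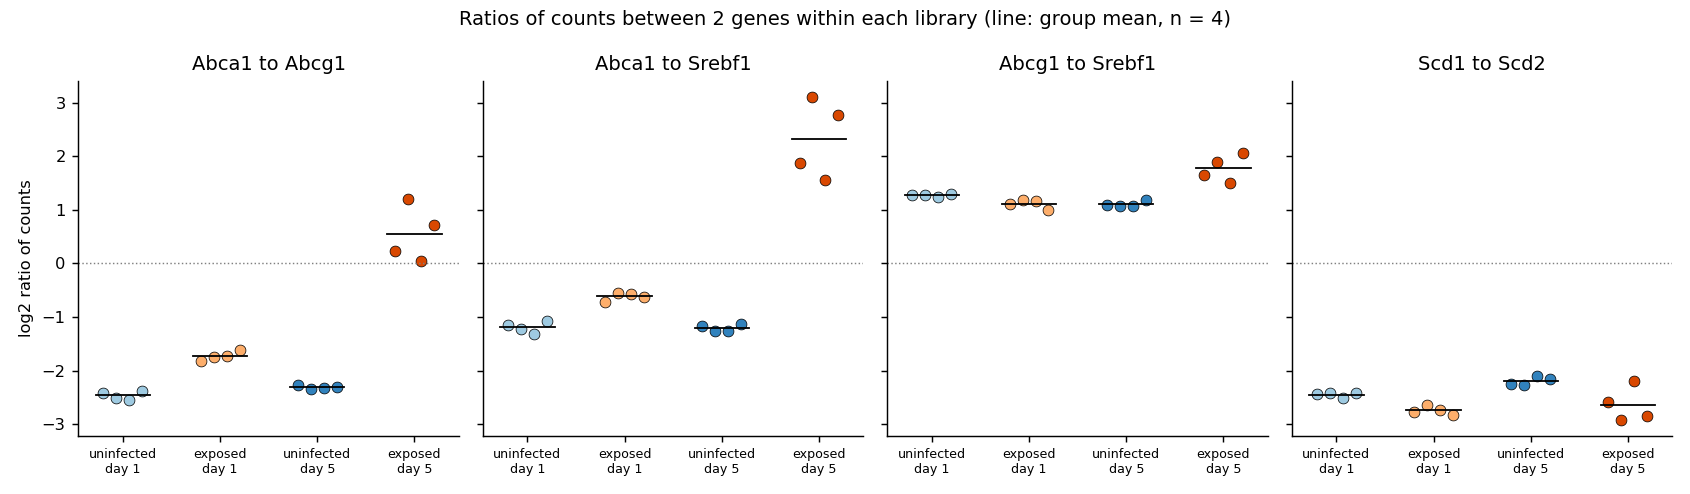
Ratio of the counts of 2 genes within each library (vertical axis, log2), with 4 points per group and the group mean as a line; the dotted line marks equal counts. In exposed day 5 libraries the Abca1 to Abcg1 ratio lies between 0.05 and 1.20, above the dotted line, and in the other 12 libraries between -2.55 and -1.62. Counts are not adjusted for exon length.

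Srebf1 encodes SREBP-1, the transcription factor that turns on fatty acid synthesis. Srebf1 (ENSMUSG00000020538.16) measured 345, 342, 365 and 358 CPM in uninfected and 338, 329, 310.5 and 331 CPM in exposed day 1 libraries. These ranges lay close together without overlap, at a log2 fold change of -0.11 ± 0.15. At day 5 it measured 492, 525, 515 and 457 CPM in uninfected and 168, 96.3, 178 and 102 CPM in exposed libraries. The means of 497 ± 30.0 and 136 ± 42.8 CPM (SD, n = 4 each) gave a log2 fold change of -1.87 ± 0.15, the lowest of the 10 genes. Uninfected cells had more Srebf1 at day 5 than at day 1 (log2 difference 0.50 ± 0.15) and exposed cells had less, so that the exposure difference moved by -1.76 ± 0.21 between the days. The counts do not separate the SREBP-1a and SREBP-1c transcripts, of which LXR is known to induce the second.

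Abca1 and Srebf1, the pair farthest apart at day 5, were compared in the DNA just before their transcription starts. RefSeq promoter windows (GRCm38.p6, 250 bases before to 50 after a start) matched 7 of the 10 genes with 12 windows; Abcg1, Scd1 and Scd2 had none. The 250 bases before the start are printed 5′ to 3′ in the direction of transcription for Abca1 (chr4:53159896-53160145, minus strand), for the most downstream of the 3 Srebf1 windows (chr11:60210472-60210721, minus strand) and for Fasn (chr11:120824548-120824797, minus strand). Capitals mark 15 of the 16 bases of a direct repeat of 2 receptor half-sites spaced by 4 bases, the type known to bind LXR with RXR. In all 3 windows they read GGTTA, 4 bases, CGGTCA on the other strand. The base that completes GGTTA to GGGTTA there is left in lower case.
Abca1: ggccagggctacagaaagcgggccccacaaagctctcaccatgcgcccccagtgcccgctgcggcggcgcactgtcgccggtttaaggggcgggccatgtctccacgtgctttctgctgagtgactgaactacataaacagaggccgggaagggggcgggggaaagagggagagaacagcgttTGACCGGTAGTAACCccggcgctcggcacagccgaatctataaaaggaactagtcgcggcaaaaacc
Srebf1: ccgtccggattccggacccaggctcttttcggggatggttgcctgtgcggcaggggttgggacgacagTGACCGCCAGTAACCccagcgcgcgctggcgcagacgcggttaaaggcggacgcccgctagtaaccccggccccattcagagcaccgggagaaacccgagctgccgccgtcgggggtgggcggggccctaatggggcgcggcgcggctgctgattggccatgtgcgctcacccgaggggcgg
Fasn: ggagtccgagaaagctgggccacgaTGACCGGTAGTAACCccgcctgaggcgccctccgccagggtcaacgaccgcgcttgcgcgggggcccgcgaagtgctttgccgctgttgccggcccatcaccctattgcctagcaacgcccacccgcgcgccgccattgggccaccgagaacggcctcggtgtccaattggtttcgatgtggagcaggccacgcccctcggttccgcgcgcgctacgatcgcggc

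The marked element starts at base -67 in Abca1, -182 in Srebf1 and -225 in Fasn, counted back from the start with the base before it as -1. Its 15 bases are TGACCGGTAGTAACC in Abca1 and in Fasn and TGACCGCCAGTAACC in Srebf1. Searched on both strands, this spelling was found in 4 of 32851 RefSeq windows (0.0122%), those of Abca1, Srebf1, Fasn and Prrg4. It was chosen after the promoter windows had been read, so its presence in those of Abca1 and Srebf1 is no finding. Its small share of all windows is no support either. The 3 genes that carry it and are abundant differed in direction at day 5, with Abca1 higher, Srebf1 lower and Fasn, the fatty acid synthase, lower at 217 ± 38.3 against 402 ± 62.2 CPM (SD, n = 4 each, log2 fold change -0.89 ± 0.12, edgeR adjusted p = 4.13e-06). Fasn is named for this match, after its values were seen. Prrg4 was near 0, at 0.288 against 0.269 CPM. A match of letters is not a bound site.

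The motifs fixed before the windows were read are given next, and their counts cannot be set against that of the spelling above. The half-site AGGTCA was in 0 of the 12 windows and in 16.3% of all windows, and its direct repeat with 4 bases between and up to 2 mismatches (DR4) in 0 of 12 and in 3.02%. The sterol regulatory element TCACNCCAC, to which SREBPs bind, was in 0 of 12 and in 1.24%. The E box CACGTG was in 1 of 12, that of Abca1 at base -147, and in 7.15% of all windows. An absent match says only that these letters are not in these 300 bases.

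SCD1 and SCD2 are desaturases that make monounsaturated fatty acids, and both are targets of SREBP-1 and LXR. Scd1 (ENSMUSG00000037071.4) measured 719, 751, 812 and 727 CPM in uninfected and 312, 204, 374 and 179 CPM in exposed day 5 libraries. The exposed values were all lower, at a log2 fold change of -1.49 ± 0.17. Scd2 (ENSMUSG00000025203.7), the most abundant of the 10 per kilobase of transcript, measured 3398, 3596, 3486 and 3244 CPM in uninfected and 1877, 1535, 1706 and 1294 CPM in exposed day 5 libraries. The log2 fold change was -1.10 ± 0.11, again with no overlap. At day 1 both genes overlapped between groups, at 291, 304, 274 and 308 against 242, 279, 254 and 209 CPM for Scd1. For Scd2 they measured 1576, 1624, 1546 and 1648 against 1636, 1732, 1686 and 1478 CPM. Uninfected cells carried more of both at day 5 than at day 1 (log2 differences 1.35 ± 0.17 and 1.10 ± 0.11), and the exposed day 5 libraries overlapped the uninfected day 1 range for both. That sets the pair apart from Abcg1, Srebf1, Mylip and Lpcat3, whose exposed day 5 values were below those of every other group.

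LPCAT3 places polyunsaturated fatty acids into membrane phospholipids. Lpcat3 (ENSMUSG00000004270.14) measured 592, 605, 619 and 524 CPM in uninfected and 373, 319, 324 and 302 CPM in exposed day 5 libraries. The groups were apart, at a log2 fold change of -0.83 ± 0.09. At day 1 it measured 496, 502, 508 and 525 against 419.7, 441, 442 and 379 CPM, again without overlap, at a log2 fold change of -0.27 ± 0.09. Lpcat3 and Abca1 were the 2 genes of the 10 called at day 1, and the call for Lpcat3 was lost without exposed replicate 1 (-0.27) or 4 (-0.23), without uninfected replicate 1 (-0.28), 3 (-0.27) or 4 (-0.26), and with no filter on low counts (-0.30).

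Mylip encodes IDOL, the ubiquitin ligase that marks the LDL receptor for breakdown and thereby lowers cholesterol uptake. Mylip (ENSMUSG00000038175.11) measured 76.9, 80.8, 86.8 and 85.3 CPM in uninfected and 35.8, 21.3, 47.5 and 27.6 CPM in exposed day 5 libraries. All exposed values were lower, at a log2 fold change of -1.32 ± 0.16, although they varied more than 2-fold among themselves (2.23-fold from lowest to highest). At day 1 the groups overlapped, at 64.8, 58.0, 64.3 and 67.5 against 59.2, 63.0, 61.0 and 68.4 CPM and a log2 fold change of -0.02 ± 0.16.

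At day 1, 1 of the 10 genes was called higher and 1 lower, in a comparison where 23.8% of all genes were called, 13.4% higher and 10.5% lower. Exposed and uninfected libraries did not overlap for 4 of the 10 (Abca1 higher, and Abcg1, Srebf1 and Lpcat3 lower), or 40%, against 39.3% of all genes tested. At day 5 they did not overlap for 8 of 10, against 46.6% of all genes. The exposure effect differed between the days for 8 of the 10 genes, 1 more positive at day 5 (Abca1) and 7 more negative, where 35.9% of all genes were called, 16.4% more positive and 19.5% more negative. Between uninfected days 5 of the 10 were called higher at day 5 (Abca1, Abcg1, Srebf1, Scd1 and Scd2) and 0 lower, where 19.7% of all genes were called, 10.8% higher and 8.91% lower. The call of Abcg1 (0.33) was lost with no filter on low counts (0.31), without uninfected day 1 replicate 1 (0.32), 2 (0.32), 3 (0.33) or 4 (0.34), and without uninfected day 5 replicate 2 (0.31), 3 (0.32) or 4 (0.34). That of Srebf1 (0.50) was lost without uninfected day 1 replicate 1 (0.49), 2 (0.48) or 4 (0.50) and without uninfected day 5 replicate 2 (0.47) or 3 (0.48). The comparisons share libraries, so their values for a gene are not independent. Nothing is read from these counts, since the levels in all 4 groups were known when the genes were chosen.

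**Figure D3:**
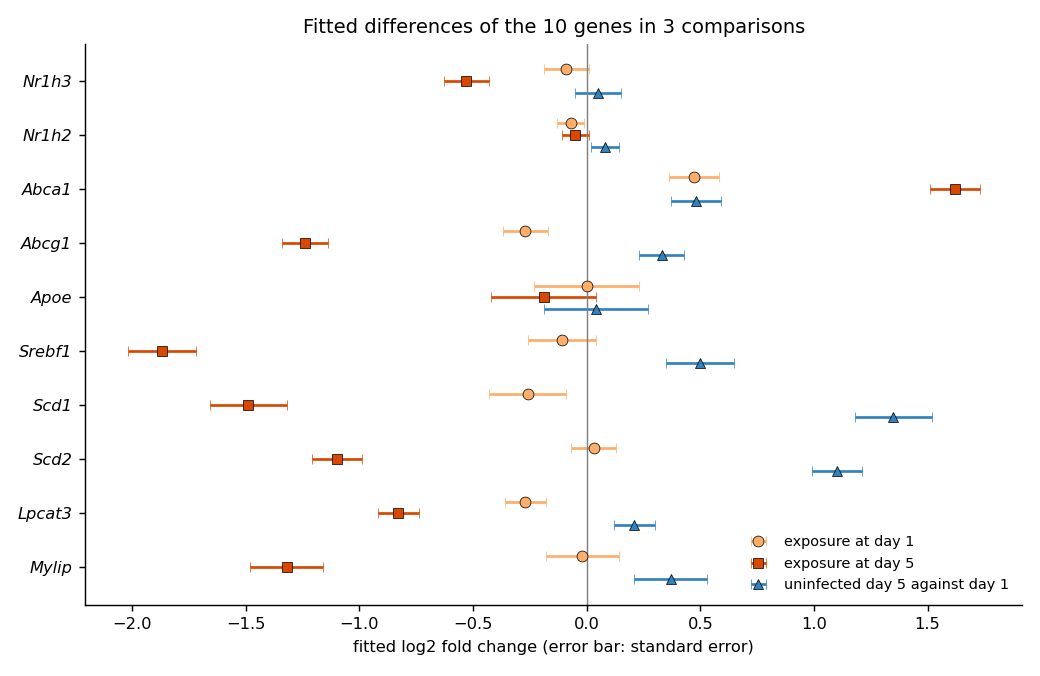
Fitted log2 fold change (horizontal axis) with its standard error (bar) for each gene in 3 comparisons. Exposure at day 5 places Abca1 at 1.62 and the other 9 genes below 0, while uninfected day 5 against day 1 places the 5 called genes between 0.33 and 1.35.

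Per kilobase of exon, which allows levels of different genes to be compared, Scd2 was the most and Apoe the least abundant of the 10 in every group. In uninfected day 5 cells Scd2 stood at 628 ± 27.2 CPM per kilobase, followed by Lpcat3 (179 ± 12.9), Scd1 (154 ± 8.62), Abcg1 (146 ± 4.54), Srebf1 (88.3 ± 5.33), Nr1h3 (36.5 ± 3.70), Nr1h2 (28.5 ± 1.12), Mylip (25.5 ± 1.39), Abca1 (20.9 ± 0.427) and Apoe (7.57 ± 0.682) (SD, n = 4 each). The neighbours Scd1 and Abcg1 differed by less than the SD of Scd1. In exposed day 5 cells Abca1 moved from the ninth to the third place at 64.1 ± 12.5, within the spread of Abcg1 (62.0 ± 10.3) and Scd1 (54.7 ± 18.7), and Srebf1 moved from the fifth to the eighth at 24.2 ± 7.59, within the spread of Nr1h3 (25.3 ± 3.38) and Nr1h2 (27.4 ± 0.756). Lpcat3 stayed second at 101 ± 9.40 and Scd2 first at 293 ± 45.5.

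The 4 exposed day 5 libraries differed from each other more than those of any other group for 9 of the 10 genes (all but Nr1h2), by coefficient of variation. The coefficient of variation was 31.4% for Srebf1, 34.2% for Scd1 and 19.4% for Abca1, against 6.04%, 5.61% and 2.05% in uninfected day 5 cells. Replicates 2 and 4 had the 2 highest values of Abca1 and Nr1h2 and the 2 lowest of the other 8 genes. Relative to the uninfected day 5 mean, Abca1 was higher by 1.93 and 1.69 on the log2 scale in replicates 2 and 4, and by 1.50 and 1.27 in replicates 1 and 3. For Srebf1 the same differences were -2.37 and -2.28 in replicates 2 and 4 and -1.57 and -1.48 in replicates 1 and 3. Of all genes tested, 25.6% had their 2 highest and 25.6% their 2 lowest values in replicates 2 and 4, which also had the highest scores on the first principal component (125.3 and 127.6, against 90.1 and 110.5). The other library codes mark replicates 2 and 3, which is not the same pair. Without those 2 libraries the day 5 log2 fold change was 1.60 for Abca1, -1.18 for Abcg1 and -1.88 for Srebf1.

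**Figure D4:**
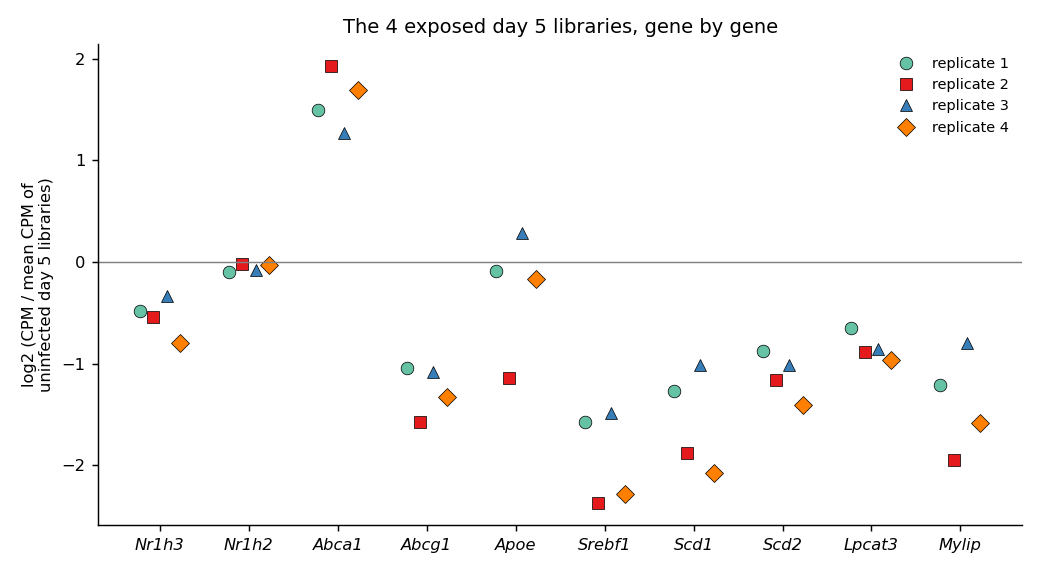
Level of each gene in the 4 exposed day 5 libraries relative to the mean of the uninfected day 5 libraries (vertical axis, log2 ratio of CPM), 1 symbol per replicate. Replicates 2 and 4 are the 2 upper points for Abca1 and Nr1h2 and the 2 lower points for the other 8 genes.

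Other features of the libraries moved with these differences. The summed level of the 8 alveolar macrophage markers ran from 16772 to 23985 CPM in uninfected and from 7145 to 9296 CPM in exposed day 5 libraries, and from 13434 to 14940 and 8507 to 11061 CPM at day 1, with none of the 8 at 0. Most of it was Chil3, a secreted chitinase-like protein, at 16123 CPM in uninfected and 2991 CPM in exposed day 5 cells. Without Chil3 the sum went the other way, at 3819 to 4493 CPM in uninfected and 4753 to 6235 CPM in exposed day 5 libraries, and 5 of the 8 markers had a higher mean in exposed cells, among them the integrin Itgax (193 against 928 CPM). The 7 macrophage markers summed to 3611 to 4080 CPM in uninfected and 7419 to 12872 CPM in exposed day 5 libraries, and to 3176 to 3491 and 5177 to 6076 CPM at day 1. Most of that was the lysozyme gene Lyz2, at 2256 and 7899 CPM at day 5. Without Lyz2 the macrophage sum was 1392 to 1573 CPM in uninfected and 2047 to 3406 CPM in exposed day 5 libraries, and it overlapped between groups at day 1 (1544 to 1654 and 1530 to 1770 CPM). The mean of Spi1, the macrophage factor PU.1, was lower in exposed cells on both days (265 against 183 CPM at day 5), as were those of Adgre1 and Cd68 at day 1.

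Some markers listed for other cell types were present, with means that differed between exposed and uninfected cells (not tested). The epithelial marker Cdh1 stood at 71.2 CPM in uninfected and 18.0 CPM in exposed day 5 cells, and the fibroblast marker Pdgfra at 20.8 and 11.2 CPM. Each was the only 1 of 6 on its list to average 1 CPM over all libraries. The neutrophil marker S100a8 stood at 338 and 872 CPM at day 1 and at 484 and 616 CPM at day 5, whereas Ly6g and Elane had a mean under 1 CPM in each group. Of the 6 neutrophil markers, 3 had a higher and 3 a lower mean in exposed cells on each day. At day 5 S100a9 (7.28 and 3.95 CPM) and Mpo (3.25 and 0.643 CPM) were lower in exposed cells, and Camp (0.0570 and 4.38 CPM) was higher. The 5 endothelial markers summed to 2.99 to 3.62 CPM in uninfected and 6.21 to 9.23 CPM in exposed day 5 libraries. The 5 T cell and 5 B cell markers summed to less than 1 CPM in every library. Mitochondrially encoded transcripts took 1.58% to 1.84% of counts in uninfected and 0.780% to 1.24% in exposed day 5 libraries. The part of these differences in the values of the 10 genes was not tested.

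By Pearson correlation of log2 CPM over the 16 libraries, among 9521 genes with a mean of at least 5 CPM, genes most like Abca1 included Slc6a9, a glycine transporter (r = 0.987), Pnrc1 (0.986), Ampd3, an AMP deaminase (0.986), and Mtmr7 (0.986). The genes most like Abcg1 were Lsp1 (0.986), Ckmt1, a mitochondrial creatine kinase (0.986), Chsy1, a chondroitin synthase (0.984), Capn1 (0.983) and Nrep (0.982). Those most like Srebf1 were Id1, an inhibitor of helix-loop-helix factors (0.990), Fabp1, a fatty acid binding protein (0.988), Slc9a3r2 (0.987), Lsp1 (0.987) and Tbxas1, thromboxane synthase (0.986). Lsp1 was on both of the last lists. These correlations describe 16 libraries in 4 groups that share treatment and day, and exposed day 5 libraries are far from the others.

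The genes around the 10 were counted on 11 lists of 149 genes, of which 121 were tested. At day 5, 38 of them were higher and 44 lower in exposed cells, and at day 1, 13 were higher and 27 lower, against the shares of all genes given above. In what follows, rose and fell compare exposed with uninfected cells of the same day unless time is named. Adjusted p-values below come from the same quasi-likelihood test of edgeR over all genes tested, and the 4 exposed libraries did not overlap the 4 uninfected ones where nothing else is said. These p-values set a difference against a spread between replicates that was estimated over all 4 groups together. All replicates come from 1 cell line. Where edgeR called 0 genes of a list in a direction given below, DESeq2 also called 0, and at an unadjusted p under 0.05 edgeR had 0 genes as well except at day 1, with 1 of the other ABCA and ABCG transporters and 1 of the NR1 receptors higher. For the 10 LXR genes between uninfected days, where 0 were called lower, both counts were 0 too. Some of the list counts of 0 did not hold under other alternatives. At day 1, 1 of the NR1 receptors was called higher with a filter of 1 CPM in 4 libraries. With day 1 libraries alone, 1 gene of fatty acid synthesis was called higher.

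Among the RXR partners and coregulators, 2 of 16 were higher and 7 lower at day 5, and 0 higher and 9 lower at day 1. Rxra, an RXR partner of LXR, fell from 234 ± 13.7 to 104 ± 10.5 CPM at day 5 (SD, n = 4 each, log2 fold change -1.17 ± 0.09, adjusted p = 2.06e-09) and by 0.37 at day 1 (adjusted p = 0.00501). Nrip1, a corepressor also known as RIP140, fell by 0.68 at day 1 (adjusted p = 6.28e-06) and by 0.63 at day 5 (adjusted p = 1.81e-06). Gps2, a subunit of the NCoR corepressor complex, fell by 0.82 at day 5 (adjusted p = 7.77e-07).

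Of 5 tested enzymes that make or clear oxysterols, 2 were higher and 1 lower at day 5. Ch25h, which makes the LXR ligand 25-hydroxycholesterol, rose from 1.67 ± 0.352 to 4.32 ± 1.35 CPM (SD, n = 4 each, log2 fold change 1.37 ± 0.23, adjusted p = 3.63e-05). Sult2b1, which inactivates oxysterols by sulfation, fell by 0.66 from a level of 1.66 CPM (adjusted p = 0.00951). Cyp11a1, known for steroid synthesis, was the other one called higher, at 6.06 against 4.12 CPM with overlapping libraries (log2 fold change 0.55, adjusted p = 0.0311), and its call was lost without exposed day 5 replicate 1 (0.52) or 3 (0.29) and without uninfected day 5 replicate 1 (0.48), 2 (0.46) or 3 (0.57).

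Of 9 other LXR targets, 1 was higher and 4 lower at day 5, with a median of -0.28. The apolipoprotein gene Apoc1, a neighbour of Apoe in the genome, fell from 184 ± 37.1 to 85.5 ± 30.4 CPM (SD, n = 4 each, log2 fold change -1.11 ± 0.20, adjusted p = 0.000125), whereas Apoe did not pass the threshold. Pltp, the phospholipid transfer protein, was lower by 0.42 in exposed day 5 cells (adjusted p = 0.000494). From day 1 to day 5 mean Pltp went from 18.1 to 26.4 CPM in uninfected and from 14.3 to 19.65 CPM in exposed cells. Mean Apoc1 went from 110 to 184 CPM in uninfected and from 97.7 to 85.5 CPM in exposed cells. Lpl, lipoprotein lipase, fell by 0.50 at day 1 (adjusted p = 0.00128) and did not pass at day 5 (log2 fold change 0.19, overlapping libraries, adjusted p = 0.114), although it passed without exposed day 5 replicate 3 (0.27), without replicates 2 and 3 (0.26), with DESeq2 (0.20) and with a filter of 1 CPM in 4 libraries (0.22), and these effects differed (adjusted p = 0.000854 for the change between days).

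Fatty acid synthesis had 10 of 16 genes lower and 1 higher at day 5, with a median of -0.46, but 1 lower and 0 higher at day 1. The day 1 counts depended on the fit, with 4 lower and 1 higher from day 1 libraries alone and 2 lower with DESeq2. Acly, which supplies cytosolic acetyl-CoA, fell from 1043 ± 63.5 to 381 ± 54.3 CPM at day 5 (SD, n = 4 each, log2 fold change -1.45 ± 0.10, adjusted p = 3.53e-10). At day 1 it was at 490 and 423 CPM without overlap. It did not pass there with edgeR, although DESeq2 called it lower (-0.24, adjusted p = 0.0484). Like Scd1 and Scd2, it rose with time in uninfected cells (log2 difference 1.09, adjusted p = 4.95e-07). The fatty acid elongases Elovl5 and Elovl6 fell by 1.26 (adjusted p = 7.48e-10) and by 1.98 (adjusted p = 1.27e-07), Elovl6 from 7.25 CPM.

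The 20 tested genes listed under cholesterol synthesis did not move as one, with 9 higher and 8 lower at day 5. At day 1, 9 were higher and 0 lower. Stard4, a sterol carrier and not an enzyme, fell by 0.75 at day 5 (adjusted p = 8.16e-08). Of the genes for SREBP processing, Srebf2, the paralog of Srebf1, was at 270.4 and 253 CPM in uninfected and exposed day 5 cells with overlapping libraries (log2 fold change -0.10, adjusted p = 0.348). Insig2, which holds SREBP in the endoplasmic reticulum, rose by 0.41 at day 5 (adjusted p = 0.00015). In all, 2 of the 6 genes of SREBP processing were higher at day 5 and 0 lower.

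For movement of cholesterol inside the cell, 9 of 16 genes were higher and 4 lower at day 5, with a median of 0.44. Npc2, which hands cholesterol over in lysosomes, rose from 1238 ± 131.9 to 2209 ± 400.3 CPM (SD, n = 4 each, log2 fold change 0.84 ± 0.12, adjusted p = 7.14e-06). Nceh1, which frees cholesterol from its esters, fell by 0.86 at day 5 (adjusted p = 6.27e-07) and by 0.43 at day 1 (adjusted p = 0.00462). Of 7 lipoprotein receptors, 2 were higher and 3 lower. Olr1, the receptor LOX-1 for oxidised LDL, rose from 432 ± 26.6 to 1968 ± 459 CPM at day 5 (SD, n = 4 each, log2 fold change 2.19 ± 0.13, adjusted p = 6.22e-11), and Msr1, a scavenger receptor, from 1.65 ± 0.296 to 11.4 ± 7.20 CPM (adjusted p = 4.47e-06). Scarb1, the HDL receptor, fell by 1.00 (adjusted p = 2.27e-08).

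Of the other ABCA and ABCG transporters, 4 of 7 were higher and 0 lower at day 5, while at day 1 none was called. Among those called higher were Abca5 (0.230 and 0.505 CPM, overlapping libraries) and Abca9 (0.0409 and 0.301 CPM), both near 0. With a filter of 1 CPM in 4 libraries, 2 were called higher, so little is read from the count. Abca3, known for loading surfactant lipid into lamellar bodies, rose from 57.0 ± 3.08 to 135 ± 13.2 CPM (SD, n = 4 each, log2 fold change 1.24 ± 0.08, adjusted p = 1.02e-10). Abcg4, the closest relative of Abcg1, stood at 2.38 ± 0.341 and 4.07 ± 1.74 CPM (SD, n = 4 each, log2 fold change 0.77, overlapping libraries, adjusted p = 0.0114), a call lost without exposed day 5 replicate 3 (0.44). Among the other lysophospholipid acyltransferases, 2 of 7 were higher and 2 lower. Lpcat2 rose where Lpcat3 was lower, from 24.5 ± 1.05 to 71.7 ± 5.24 CPM at day 1 (SD, n = 4 each, adjusted p = 1.7e-10) and from 23.5 ± 2.97 to 147 ± 7.02 CPM at day 5 (log2 fold change 2.64 ± 0.09, adjusted p = 7.23e-14). Mboat1 fell by 1.84 at day 5 (adjusted p = 4.55e-07).

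Of 12 other nuclear receptors of the NR1 subfamily to which the LXRs belong, 4 were higher and 5 lower at day 5, and 0 higher and 6 lower at day 1. Pparg, the receptor that GM-CSF maintains in alveolar macrophages and that is known to raise Nr1h3, fell from 383 ± 18.0 to 185 ± 31.8 CPM at day 5 (SD, n = 4 each, log2 fold change -1.05 ± 0.10, adjusted p = 3.6e-08) and by 0.46 at day 1 (adjusted p = 0.00245). Rara, a retinoic acid receptor, fell by 1.79 at day 5 (adjusted p = 7.36e-13). Nr1d1, the clock repressor REV-ERBα, fell most at day 1, by 1.55 (adjusted p = 9.19e-10), and by 0.36 at day 5 (adjusted p = 0.00347).

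**Figure D5:**
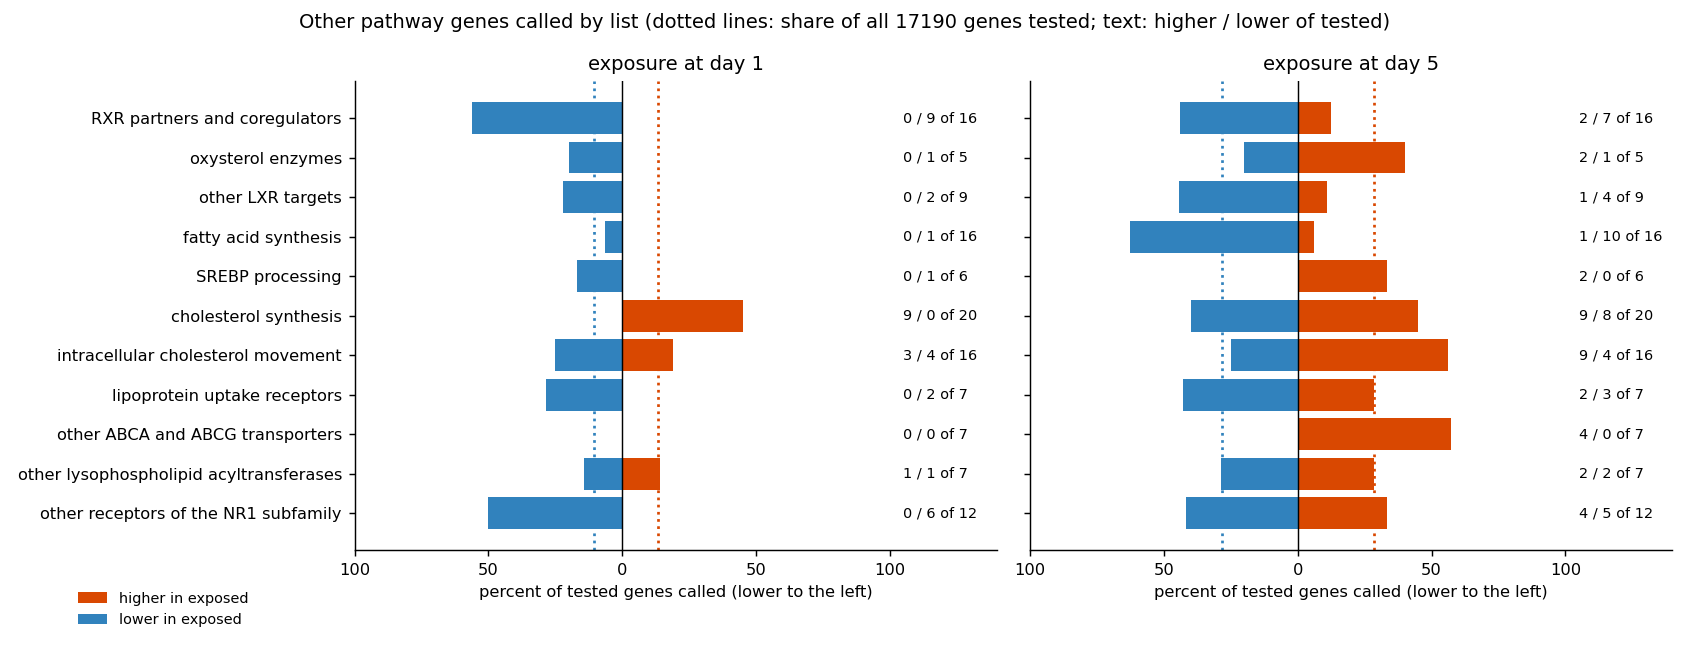
Share of the tested genes of each of the 11 lists that was called higher (right) or lower (left) in exposed cells, in percent, at day 1 and day 5; dotted lines give the shares of all 17190 genes tested and the text gives counts. At day 5 fatty acid synthesis reaches 62.5% lower and the other ABCA and ABCG transporters 57.1% higher. The last share includes Abca5 and Abca9, which lie near 0 CPM.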

How the data were processed

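RNA-seq of polyadenylated RNA was analysed in 16 libraries, grouped by the labels. The authors deposited raw gene counts, for reads on the reverse strand per the file names, from reads aligned with STAR to GRCm39 per the submitters' processing notes; the program version and annotation release are not given in the sources used here, nor is the treatment of reads that fit both Scd1 and Scd2. Symbols and exon lengths (union of exons) came from GENCODE M21, which rests on an older assembly, so no gene coordinates are given for these files; 52083 of 55359 identifiers matched, and the rest held 0.449% of counts.

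Genes passed filterByExpr by group (17190), libraries were scaled by TMM, and a robust quasi-likelihood model with 1 mean per group was fitted to all 16 libraries (edgeR 4.0.16, R 4.3.3; common biological coefficient of variation 0.149). Two-sided p-values were adjusted over all genes tested (Benjamini-Hochberg) and called under 0.05. The standard error is the log2 fold change divided by the square root of F. The test was checked on simulated data in which few genes changed and each gene had the same spread in all groups. The exposed day 5 libraries of this series differ from that setting in both respects. The members, the lists, the tests and the alternatives were chosen with earlier results of these data known. Named beside the 10 genes are, from each list, up to 3 genes with the smallest p at day 5 and 2 at day 1, and the 5 genes most like Abca1, Abcg1 and Srebf1. Some genes that this rule names are not reported here. Alternatives were DESeq2 1.42.0, RLE size factors, other filters (none beyond 1 read, or 1 CPM in 4 libraries), fits on only the libraries compared, a replicate block, leaving out each library, and leaving out the 2 exposed day 5 libraries of another code series. The motif GGTTA, 4 bases, CGGTCA was added after seeing the promoter windows. Figures were drawn with matplotlib 3.10.9.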

Additional observations from a re-analysis of the deposited data

Results flagged for a closer look

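The exposure effect differed between day 1 and day 5 (interaction term of edgeR's quasi-likelihood fit, Benjamini-Hochberg adjusted p under 0.05) for 34 of the genes named. Of the 10 LXR genes, 8 were past the threshold, with an effect at day 5 minus that at day 1 (log2) of Nr1h3 -0.44, Abca1 1.16, Abcg1 -0.97, Srebf1 -1.76, Scd1 -1.24, Scd2 -1.13, Mylip -1.30, Lpcat3 -0.56; since the genes were chosen on these levels, the values are a description. Of the other genes, those with a more positive effect at day 5 were Ch25h 1.29, Lpl 0.68, Insig2 0.34, Hsd17b7 0.72, Npc2 0.68, Olr1 1.92, Msr1 1.93, Abca3 1.18, Lpcat2 1.09, Lclat1 0.67, Nr1d1 1.20 (log2). Those with a more negative effect at day 5 were Rxra -0.79, Gps2 -0.77, Apoc1 -0.94, Apoc4 -1.49, Acly -1.24, Elovl5 -0.81, Elovl6 -1.95, Insig1 -0.38, Stard4 -0.63, Nceh1 -0.43, Scarb1 -0.65, Mboat1 -1.52, Rara -1.29, Thrb -0.85, Pparg -0.59 (log2). Adjusted p-values of these other genes ran from 4.83e-08 (Rara) to 0.0234 (Nceh1). The difference of Insig2 was lost without exposed day 1 replicate 1 (0.31) and that of Nceh1 without uninfected day 5 replicate 3 (-0.39) or with no filter on low counts (-0.40). Both were lost without the 2 exposed day 5 libraries of the other code series (0.25 and -0.33). With no filter on low counts those of Apoc1 (-0.91, adjusted p = 0.0627) and Insig1 (-0.34, adjusted p = 0.0936) were lost too.

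In 10 of 220 groups of 4 libraries, 1 library lay far from the other 3; chance gives such a gap in about 1 in 20 groups, and none was found for the 10 LXR genes. Exposed day 1 replicate 4 was that library for Nceh1 (95.0 CPM, others 113.5 to 117.1), Abcg4 (4.50 CPM, others 2.77 to 3.02), Abca7 (106 CPM, others 77.7 to 79.6) and Mboat1 (17.3 CPM, others 21.3 to 21.8), and exposed day 1 replicate 2 for Abca9 (0.0783 CPM, others 0 to 0.0121). Among exposed day 5 libraries it was replicate 3 for Rxra (88.3 CPM, others 108.3 to 110.4) and replicate 2 for Lrp1 (1813 CPM, others 1338 to 1416) and Lpcat2 (157 CPM, others 142 to 144.3). Among uninfected libraries it was day 1 replicate 3 for Olr1 (638 CPM, others 685 to 694) and day 5 replicate 2 for Nr1d1 (16.8 CPM, others 18 to 18.2).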

How the results depend on the processing

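For the 10 LXR genes, all 150 values of the day 5 comparison and all 220 of the change between days kept their direction and call under every alternative listed above. The genes were chosen on their levels in these same libraries, so refits cannot support their calls, and these counts are a description. At day 1, 6 of 140 values lost a call (Lpcat3) and 4 gained one (Abcg1, at -0.30 with DESeq2 and RLE size factors and -0.26 with day 1 libraries alone, and Scd1, at -0.25 with those alone). Between uninfected days 13 of 140 lost a call (Abcg1 and Srebf1) and 3 gained one (Mylip and Lpcat3). Group means moved by more than 1 SD with library totals and no TMM factors, to 92.8 CPM for Nr1h2, 91.2 for Nr1h3, 874.8 for Abcg1 and 522 for Lpcat3 in uninfected day 1 cells and to 87.1 for Nr1h2 in exposed day 5 cells.

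Counts over the 11 lists and over all genes moved by over 1.5 times in 12 cases, 7 of them with 1 library left out. With day 1 libraries alone, 25 list genes were higher (13 in the joint fit) and 7021 of all genes were called (4097). With uninfected libraries alone, 38 list genes were higher at day 5 (21) and 6424 of all genes were called (3384). With no filter beyond 1 read, 13 list genes were higher between uninfected days. The spread of the exposed day 5 libraries does not enter those fits on fewer libraries.

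Leaving out each library in turn gave, at day 1, 9 to 12 list genes higher, 19 to 22 lower and 2926 to 3459 of all genes called. At day 5 it gave 32 to 44, 41 to 47 and 9144 to 10064. For the change between days it gave 22 to 39 (39 without exposed day 5 replicate 3), 29 to 37 and 5399 to 7370. Between uninfected days it gave 13 to 17 higher (13 without uninfected day 1 replicate 1 or day 5 replicate 4), 15 to 21 lower (15 without day 1 replicate 4 or day 5 replicate 4) and 2108 to 3134 (2225 without day 1 replicate 4 and 2108 without day 5 replicate 4).

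Libraries with the same replicate number did not deviate together (correlations from -0.0992 to 0.0597). With 4 libraries per group this cannot exclude that the numbers pair the samples, which the labels do not state. With the replicate block, list genes higher and lower numbered 13 and 26 for day 1 exposure, 37 and 44 for day 5 exposure, 25 and 32 for the change between days and 19 and 23 between uninfected days, and 3956, 9636, 5992 and 3161 of all genes were called.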
